A study of Mus musculus with 8 samples.

Results

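Laminins are secreted as trimers of 1 alpha, 1 beta and 1 gamma chain that polymerise into the basement membrane, the thin matrix on which the basal cells of the epidermis sit. The beta and gamma chains pair inside the cell, the alpha chain completes the trimer, and receptors such as integrins and dystroglycan bind mainly through the alpha chain. In skin epithelium the chains encoded by Lama3 and Lamb3 belong to the laminin that anchors hemidesmosomes, and the chain encoded by Lama5 is known for its part in hair follicle growth. The 8 laminin chain genes analysed here were chosen by symbol, with earlier results of these data known. They comprise 4 alpha chains (Lama1, Lama3, Lama4 and Lama5), 3 beta chains (Lamb1, Lamb2 and Lamb3) and 1 gamma chain (Lamc1). They are 8 of the 23432 genes listed in each library, and all of them passed edgeR's filter on low counts in both comparisons.

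RNA sequencing was done on 4 groups of mouse skin with 2 libraries each. At E16.5, an embryonic stage counted in days, cells carrying K14-H2BGFP, a nuclear green fluorescent protein driven by the Krt14 promoter, were sorted from the skin of control and MOF cKO embryos. MOF cKO embryos have the genotype MOFfl/fl/K14Cre, in which Krt14-Cre deletes the gene of the histone H4K16 acetyltransferase MOF (listed as Kat8) from the skin epithelium. At P0.5 (postnatal day 0.5), the whole epidermis was taken from control and Kansl1 cKO pups, which have the genotype Kansl1fl/fl/K14Cre and lose exon 3 of Kansl1, a subunit of the MOF-containing NSL complex. Per the study's methods, controls were wild-type or heterozygous littermates of mixed background and both sexes were used. The GFP reporter was present in both E16.5 groups, and cells that escape Krt14-Cre remain in a knockout library. The 2 experiments also differ in how cells were isolated (enzyme digestion and sorting, or Dispase-separated sheets) and in the sequencer, so stage, isolation and sequencer cannot be told apart between them. The labels do not say that replicates came from separate animals, and the p-values below measure the spread between these libraries.

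The counts on genes ran from 9108709 to 27561688 per library, and the 8 chains held between 0.126% and 0.355% of them. Levels are given in CPM, counts on a gene relative to the library's total after edgeR's TMM scaling, and 1 count stood for between 0.0326 and 0.0502 CPM at E16.5 and between 0.0484 and 0.115 CPM at P0.5. For these levels the scaling was done within each experiment, so the CPM of the stages are not on a common scale. The epithelial markers Krt5 and Krt14 (basal keratins), Trp63, Cdh1, Epcam and Sfn were high in all libraries and summed to between 29554 and 36848 CPM at E16.5 and between 14887 and 16751 CPM at P0.5. Krt5 and Krt14 made up most of these sums. In MOF cKO against control, 4 of the 6 markers had log2 fold changes above 0 and 2 below. Sfn stood at 1.23 (edgeR adjusted p = 0.00056) and Trp63 at -0.57 (edgeR adjusted p = 0.0087). Kat8 was at 14.4 and 14.7 CPM in E16.5 control and at 12.4 and 13.9 CPM in MOF cKO (log2 fold change -0.14, standard error 0.179, edgeR adjusted p = 0.554). Kansl1 was at 40.7 and 48.2 CPM in P0.5 control and at 31.4 and 30.6 CPM in Kansl1 cKO (log2 fold change -0.52, standard error 0.167, edgeR adjusted p = 0.242). Neither targeted gene passed the test, and whole-gene counts include transcripts that lack the deleted exons. In bulk libraries like these, fewer cells of a type and less RNA per cell cannot be told apart.

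The upstream sequences of 4 of the 8 genes (Lama5, Lamb1, Lamb2 and Lamb3) were found in the RefSeq promoter table for GRCm38.p6, the mm10 assembly. They are shown because Lamb2 was the chain in this table that changed in MOF cKO and the other 3 did not pass the test. Each window opens 250 bases before the RefSeq start site and is read 5′ to 3′ on the gene's strand. It ends at that site or before the first base that a GENCODE M21 exon covers. For Lamb1 and Lamb2 it ends at the GENCODE gene start, short of the RefSeq start. The bases nearest the RefSeq start of these genes are thus not shown and were not searched. The windows are chr2:180225860-180226109 on the minus strand for Lama5, chr12:31265043-31265233 on the plus strand for Lamb1, chr9:108479612-108479735 on the plus strand for Lamb2 and chr1:193301744-193301992 on the plus strand for Lamb3. The Lamb3 window lies in an intron of longer Lamb3 transcripts. Capitals mark matches to a GC box (GGGCGG, or CCGCCC on the other strand).
Lamb2: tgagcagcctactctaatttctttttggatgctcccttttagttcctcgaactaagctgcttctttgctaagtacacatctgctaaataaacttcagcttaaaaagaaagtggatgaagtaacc
Lamb1: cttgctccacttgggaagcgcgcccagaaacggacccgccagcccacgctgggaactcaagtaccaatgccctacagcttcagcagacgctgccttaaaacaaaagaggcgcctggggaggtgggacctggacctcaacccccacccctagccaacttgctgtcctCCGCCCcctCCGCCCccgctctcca
Lamb3: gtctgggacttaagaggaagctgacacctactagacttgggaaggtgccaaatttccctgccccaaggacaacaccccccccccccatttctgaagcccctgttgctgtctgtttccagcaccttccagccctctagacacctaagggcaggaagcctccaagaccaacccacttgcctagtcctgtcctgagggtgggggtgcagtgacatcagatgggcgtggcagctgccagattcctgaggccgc
Lama5: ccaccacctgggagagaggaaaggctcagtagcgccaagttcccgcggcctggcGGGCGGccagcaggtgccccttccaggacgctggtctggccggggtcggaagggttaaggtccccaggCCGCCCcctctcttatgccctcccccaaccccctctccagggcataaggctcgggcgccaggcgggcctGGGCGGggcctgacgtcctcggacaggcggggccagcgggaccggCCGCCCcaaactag
The Lama5 window of 250 bases was 72.4% G and C with 19 CG dinucleotides and held 4 GC boxes. The Lamb1 window of 191 bases was 63.9% G and C with 10 CG dinucleotides and held 2 GC boxes. The Lamb2 window of 124 bases was 37.9% G and C with 1 CG dinucleotide, and the Lamb3 window of 249 bases was 58.6% G and C with 2 CG dinucleotides, and neither held a GC box. Of the 32851 windows in the table, cut to the same positions and length, 32.7%, 23.1%, 13.3% and 32.6% held at least 1 GC box for the lengths of Lama5, Lamb1, Lamb2 and Lamb3. The AP1 element (TGANTCA), the TATA box (TATAAA, or TTTATA on the other strand) and the E-box (CACGTG) were searched as well and had no match in these 4 windows. For the shortest window, that of Lamb2, 3.19%, 6.22% and 2.27% of all windows held them, and for the longest, that of Lama5, 6.75%, 12.4% and 6.02%. These are matches of letters and were not tested for any effect.

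Levels between genes were compared per length, as CPM per kb of the union of annotated exons. In E16.5 control, Lama5 stood highest at 111 ± 12.6 CPM per kb (SD, n = 2). Lamb3 followed at 70.1 ± 5.71 CPM per kb, Lamc1 at 52.3 ± 2.81, Lamb2 at 44.5 ± 4.45, Lama3 at 37.2 ± 1.79 and Lamb1 at 17.6 ± 1.21 CPM per kb. Lama1 at 1.55 ± 0.0540 CPM per kb and Lama4 at 1.02 ± 0.463 CPM per kb were far lower, so that Lama5 was 109-fold above Lama4. No neighbours in this order had overlapping libraries. With the length of the longest transcript in place of the exon union, Lama4 (2.03 ± 0.924 CPM per kb) and Lama1 (1.57 ± 0.0549 CPM per kb) traded places and their libraries overlapped.

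In P0.5 control the order began with Lamb3 at 46.8 ± 3.80 CPM per kb (SD, n = 2). Lama5 came next at 34.0 ± 0.133 CPM per kb, then Lama3 at 27.3 ± 5.24, Lamc1 at 23.1 ± 0.358, Lamb2 at 16.9 ± 1.07 and Lamb1 at 7.30 ± 0.936 CPM per kb. Lama4 was at 0.797 ± 0.0138 CPM per kb and Lama1 at 0.179 ± 0.0863 CPM per kb. Neighbouring chains did not overlap with the exon union, and Lama3 and Lamc1 overlapped with the longest transcript. The abundant chains were those of epithelial laminins at both stages, and Lama1 and Lama4 closed the order in all 4 groups.

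**Figure D1:**
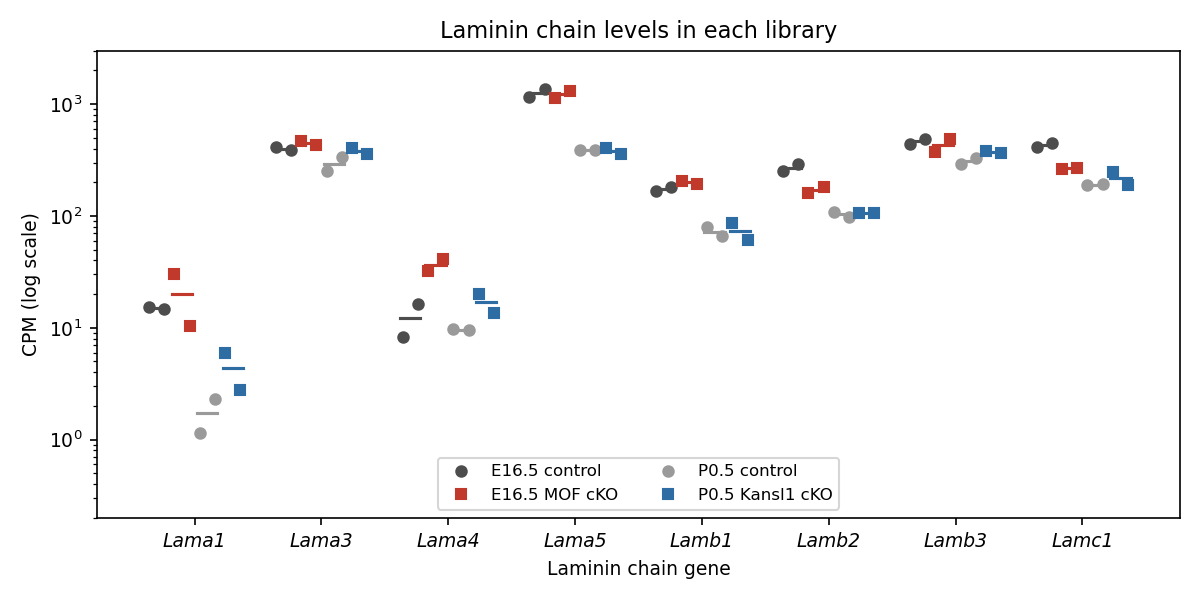
CPM of each laminin chain gene (log axis) in the 8 libraries, with a point per library and a short line at the mean of the 2 libraries of a group. Scaling was done within each experiment, so the levels are on a common scale only within a stage. Lamb2 and Lamc1 sit lower and Lama4 sits higher in both MOF cKO libraries than in both E16.5 control libraries.

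The make-up of the chains is given side by side for the stages. Lama5 held 71.5% and 75.6% of the summed level of the 4 alpha chains in the E16.5 control libraries and 58.1% and 51.4% in the P0.5 control libraries. Lama3 held 26.9% and 22.6% at E16.5 and 40.3% and 47.1% at P0.5. Among the 3 beta chains, Lamb3 held 53.2% and 52.9% in E16.5 control and 63.2% and 68.4% in P0.5 control. These shares do not rest on library scaling. The stages were not tested against each other, since isolation and sequencer changed with them.

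**Figure D2:**
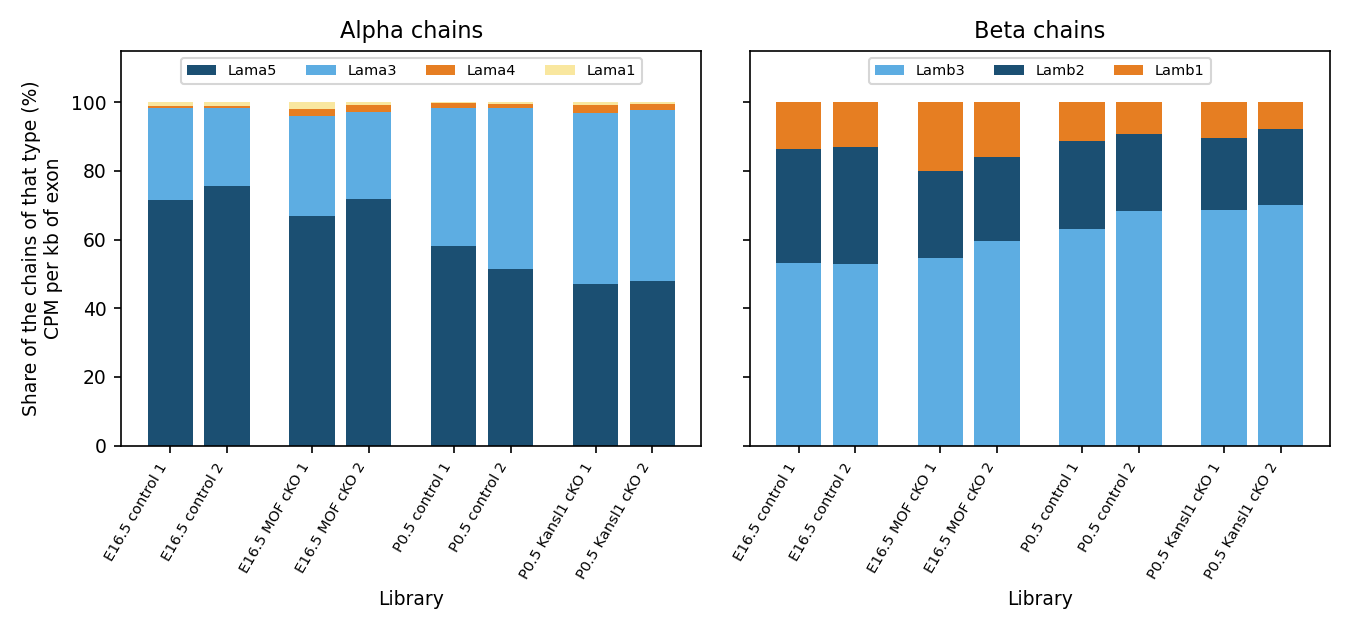
Share of each chain in the summed CPM per kb of exon of the 4 alpha chains (left) and 3 beta chains (right), as stacked bars for each of the 8 libraries. Lama5 and Lama3 make up nearly all of the alpha chains, and the Lamb2 share is 33.3% and 34.0% in E16.5 control and 25.3% and 24.3% in MOF cKO.

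To ask which chains change with loss of MOF in embryonic skin epithelium, MOF cKO was compared with control at E16.5. Lamc1 and Lamb2 fell to 0.618 and 0.629 of their control level, Lama4 rose 2.98-fold, and the other 5 chains did not pass the test. A gene was called at an edgeR adjusted p of 0.01 or lower with a fold change over 1.5. Thus 2 of 8 chains were called lower and 1 of 8 higher, where 9.59% of the 13956 genes tested were called lower and 10.0% higher. With scaling by library size alone, 2743 genes were called lower and 769 higher, in place of 1338 and 1395. The median log2 fold change was 0.06 over the 8 chains and -0.02 over all genes tested. The libraries of the genotypes did not overlap for 2 chains with MOF cKO lower and for 3 with MOF cKO higher, against 37.7% and 34.9% of all genes tested.

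Lamc1, on chromosome 1 of mm10 from 153218922 to 153332786 on the minus strand, encodes the gamma chain shared by most laminin trimers. It was at 416 and 449 CPM in the control libraries and at 265 and 269 CPM in the MOF cKO libraries. Both MOF cKO libraries were thus below both controls, and they lay closer to each other than the controls did. The means were 432 ± 23.3 and 267 ± 3.09 CPM (SD, n = 2), and the log2 fold change was -0.70 (standard error 0.101, 95% interval -0.93 to -0.46, edgeR adjusted p = 0.0022). This call held under all 11 alternative settings, with log2 fold changes of -0.64 or further below 0.

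Lamb2, on chromosome 9 from 108479736 to 108490530 on the plus strand, encodes the beta 2 chain. Its levels were 252 and 289.8 CPM in control and 159 and 181 CPM in MOF cKO, again with no overlap. The means were 271 ± 27.0 and 170.2 ± 15.4 CPM (SD, n = 2), and the log2 fold change was -0.67 (standard error 0.121, 95% interval -0.95 to -0.38, edgeR adjusted p = 0.0052). The fold stood close to the threshold: without control replicate 2 it was -0.56 on the log2 scale (edgeR adjusted p = 0.0142) and without MOF cKO replicate 1 it was -0.58 (edgeR adjusted p = 0.0208), so the call was lost in both.

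The other beta chains did not pass the test. Lamb1 (chromosome 12) was at 166 and 183 CPM in control and at 204 and 195 CPM in MOF cKO, with both MOF cKO libraries above both controls. Its log2 fold change was 0.20 (95% interval -0.05 to 0.44, edgeR adjusted p = 0.179) and turned to -0.11 with scaling by library size alone. Lamb3, the beta chain of the hemidesmosome laminin on chromosome 1, was at 437 and 490.1 CPM in control and at 374 and 485 CPM in MOF cKO, where the genotypes overlapped (log2 fold change -0.11, 95% interval -0.45 to 0.23, edgeR adjusted p = 0.574).

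Within a library, the ratio of 2 genes' counts is free of library scaling. The Lamb3 to Lamb2 ratio was 1.74 and 1.69 in control against 2.35 and 2.68 in MOF cKO. The Lamb1 to Lamb2 ratio was 0.659 and 0.631 in control against 1.28 and 1.08 in MOF cKO. The Lamb2 to Lamc1 ratio was 0.605 and 0.646 in control against 0.602 and 0.673 in MOF cKO. The first 2 ratios did not overlap between genotypes, and the ratio of Lamb2 to Lamc1 did. With 2 libraries per group the smallest two-sided p of an exact permutation test is 0.333, so none was run on these ratios.

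The main epithelial alpha chains showed no called change. Lama5, on chromosome 2, was at 1166 and 1369 CPM in control and at 1141 and 1299 CPM in MOF cKO. The genotypes overlapped in part, and the log2 fold change of -0.05 had a 95% interval of -0.34 to 0.23 (edgeR adjusted p = 0.748). Lama3, on chromosome 18, was at 414 and 386 CPM in control and at 468 and 431 CPM in MOF cKO (log2 fold change 0.17, 95% interval -0.08 to 0.41, edgeR adjusted p = 0.238), and with scaling by library size alone its log2 fold change was -0.14. Lama3 shares exon bases with an antisense transcript that is not counted in the files, and the strand setting of the counting is not given in the sources used here. The Lama5 to Lamc1 count ratio was 2.80 and 3.05 in control against 4.31 and 4.83 in MOF cKO.

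Lama4, on chromosome 10 from 38965515 to 39110188 on the plus strand, encodes an alpha chain best known from basement membranes of vessels, muscle, nerve and mesenchyme. It was at 8.35 and 16.2 CPM in control and at 32.3 and 41.0 CPM in MOF cKO, from 256 and 450 counts and from 643 and 968 counts. Both MOF cKO libraries lay above both controls, and control replicate 2 stood above control replicate 1. The log2 fold change was 1.58 (standard error 0.302, 95% interval 0.87 to 2.29, edgeR adjusted p = 0.0064). Without MOF cKO replicate 2 the log2 fold change was 1.39 and the call was lost (edgeR adjusted p = 0.0113), as it was with scaling by library size alone (log2 fold change 1.28, edgeR adjusted p = 0.0130). Even so, Lama4 held 1.79% and 2.14% of the alpha chains in MOF cKO, from 0.483% and 0.847% in control.

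Lama1, an alpha chain of early embryonic basement membranes on chromosome 17, was at 15.4 and 14.6 CPM in control and at 30.2 and 10.3 CPM in MOF cKO. The MOF cKO libraries lay on either side of the controls, and the log2 fold change was 0.43 (standard error 0.425, 95% interval -0.57 to 1.43, edgeR adjusted p = 0.455). One library decides this value: it was -0.54 without MOF cKO replicate 1 (edgeR adjusted p = 0.0978) and 1.01 without MOF cKO replicate 2 (edgeR adjusted p = 0.0041, which would be a call).

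Markers of other cell types are given beside the rise of Lama4, and they did not all move the same way. Of all genes tested, 34.9% did not overlap with MOF cKO higher and 37.7% with MOF cKO lower. edgeR called 10.0% of all genes tested higher and 9.59% lower. All 8 dermal fibroblast markers were measured and edgeR called 0 (7 had an unadjusted p under 0.05, and DESeq2 called 2), with 7 higher and 1, Dcn, lower in both MOF cKO libraries than in both controls. Their sum was at 918 and 1556 CPM in control and at 1548 and 2157 CPM in MOF cKO, most of it in Dcn and the collagens. The 7 endothelial markers, of which Pecam1 was called higher, summed to 16.4 and 19.2 CPM in control and to 20.6 and 34.2 CPM in MOF cKO. Egfl7, the most abundant of them in control, was lower in both MOF cKO libraries, at 9.65 and 11.1 CPM in control and at 6.27 and 8.17 CPM in MOF cKO (log2 fold change -0.52, edgeR adjusted p = 0.137). The pericyte and smooth muscle markers summed to 78.3 and 72.8 CPM and to 286 and 243 CPM, led by Notch3, with 3 of the 4 tested called higher (Acta2, Tagln and Notch3). Of that list Rgs5 and Kcnj8 each had 0 counts in 1 control library. The 8 macrophage markers summed to 20.0 and 44.7 CPM in control and to 88.1 and 120 CPM in MOF cKO, with 5 called higher (Csf1r, Lyz2, C1qa, C1qb and Tyrobp) and Tyrobp at 0 in 1 control. The 6 Schwann cell and melanocyte markers summed to 105 and 147 CPM and to 137 and 177 CPM, with 0 called by edgeR or DESeq2 and 0 at an unadjusted p under 0.05. The part of these cells in the level of Lama4 was not tested.

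**Figure D3:**
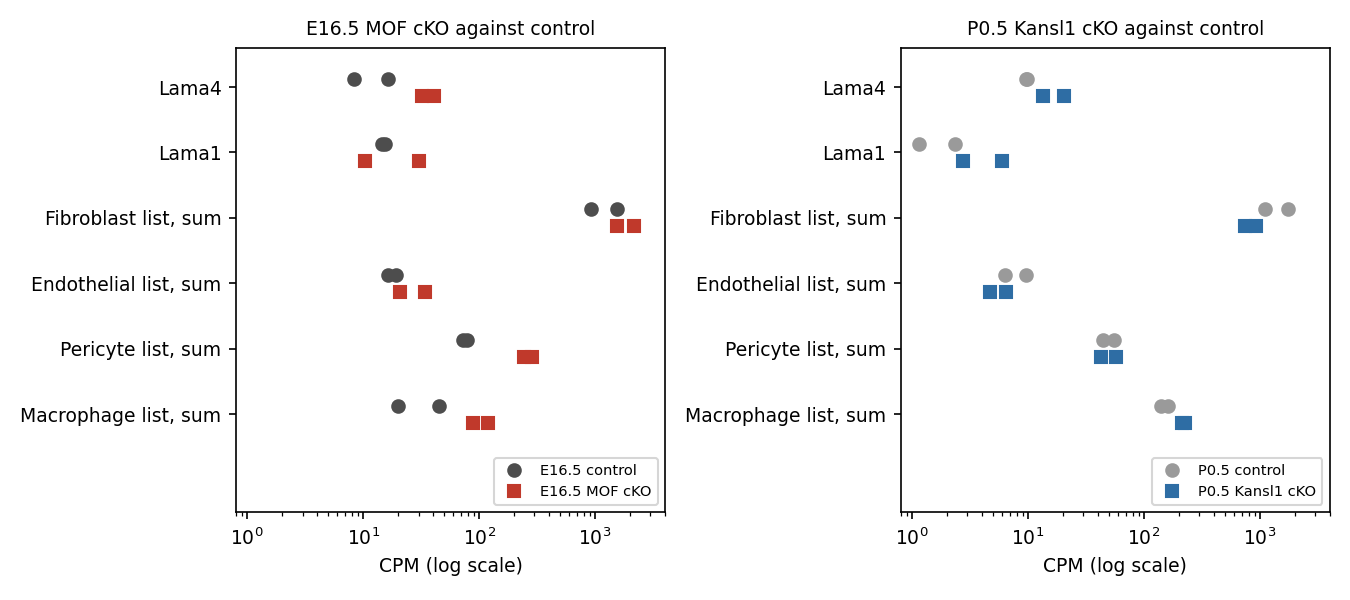
CPM (log axis) of Lama4, Lama1 and the summed marker lists of 4 other cell types, with a point per library, at E16.5 (left) and P0.5 (right). At E16.5 Lama4 and the endothelial, pericyte and macrophage lists are higher in both MOF cKO libraries and the fibroblast list overlaps. At P0.5 Lama4, Lama1 and the macrophage list are higher and the fibroblast list is lower in both Kansl1 cKO libraries. Notch3 makes up most of the pericyte sums.

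To ask the same of Kansl1, Kansl1 cKO epidermis was compared with control at P0.5. edgeR called 0 of the 8 chains, and 0% of the 13031 genes tested were called lower and 0% higher. On simulated counts for this comparison, 13.4% of the genes changed 2-fold were called and 86.4% of those changed 4-fold. At an unadjusted p under 0.05, 2 chains differed (Lama1 and Lama4, both higher), beside 2045 of all genes tested. DESeq2 on the same counts called 0 of the 8 chains, and 66 genes lower and 35 higher in all. The median log2 fold change was 0.23 over the 8 chains and 0.01 over all genes. In 4 chains both Kansl1 cKO libraries lay above both controls and in 0 chains below, against 26.0% and 22.7% of all genes tested.

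Lamc1 was at 189 and 193 CPM in P0.5 control and at 246 and 189.6 CPM in Kansl1 cKO, where Kansl1 cKO replicate 2 lay within the control range. The log2 fold change was 0.19 with a 95% interval of -0.25 to 0.64 (edgeR adjusted p = 0.659). Lamb2 was at 108 and 98.5 CPM in control and at 107 and 107 CPM in Kansl1 cKO (log2 fold change 0.05, 95% interval -0.31 to 0.41, edgeR adjusted p = 0.914). Neither interval reaches the fold of 1.5 downward.

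Lamb1 (79.0 and 65.8 CPM in control, 86.2 and 60.5 CPM in Kansl1 cKO) and Lama5 (388 and 386 CPM in control, 408 and 361 CPM in Kansl1 cKO) overlapped between genotypes, with log2 fold changes of 0.02 and -0.01. Their 95% intervals ran from -0.48 to 0.53 and from -0.40 to 0.38. The hemidesmosome chains stood higher without passing the test. Lama3 was at 254 and 333 CPM in control and at 408 and 357 CPM in Kansl1 cKO (log2 fold change 0.38, 95% interval -0.09 to 0.85, edgeR adjusted p = 0.402). Lamb3 was at 291 and 327 CPM in control and at 380.5 and 365 CPM in Kansl1 cKO (log2 fold change 0.27, 95% interval -0.12 to 0.66, edgeR adjusted p = 0.479).

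Lama4 was at 9.74 and 9.50 CPM in P0.5 control and at 20.2 and 13.4 CPM in Kansl1 cKO, without overlap (log2 fold change 0.81, standard error 0.255, 95% interval 0.21 to 1.42, edgeR adjusted p = 0.235). Lama1 rested on few reads, with 10 and 36 counts in control and 124 and 35 in Kansl1 cKO. The exact Poisson 95% interval of the lowest count, for counting error alone, runs from 4.80 to 18.4 counts. In CPM Lama1 was at 1.15 and 2.33 in control and at 6.01 and 2.77 in Kansl1 cKO (log2 fold change 1.30, 95% interval 0.05 to 2.55, edgeR adjusted p = 0.307). Without 1 library it ran from 0.59 (without Kansl1 cKO replicate 1) to 1.92 (without control replicate 2). Here the fibroblast markers summed to 1762 and 1096 CPM in control and to 927 and 741 CPM in Kansl1 cKO. Of these markers 7 of 8 were lower in both Kansl1 cKO libraries than in both controls, where 22.7% of all genes tested were. edgeR called 0 of the fibroblast markers, 6 had an unadjusted p under 0.05 and DESeq2 called 4. The endothelial list summed to 9.62 and 6.34 CPM in control and to 6.39 and 4.66 CPM in Kansl1 cKO, and the pericyte list to 55.1 and 44.0 CPM and to 42.8 and 57.7 CPM, with Kdr, Tie1 and Emcn each at 0 in at least 1 library. Notch3 made up most of the pericyte sum (46.3 and 41.9 CPM in control, 42.0 and 56.6 CPM in Kansl1 cKO). Rgs5, Acta2, Myh11 and Tagln were lower in both Kansl1 cKO libraries than in both controls, where 22.7% of all genes tested were. Their control counts were 1 and 2 (Rgs5), 42 and 6 (Acta2), 7 and 3 (Myh11) and 21 and 15 (Tagln). In the same order, Kansl1 cKO counts were 1 and 1, 4 and 2, 2 and 2, and 7 and 2. Rgs5, Acta2 and Myh11 did not pass the filter on low counts. Only 2 of the 6 members of the pericyte list, Tagln and Notch3, were tested. edgeR and DESeq2 called 0 members of the endothelial and pericyte lists, and 0 and 1 had an unadjusted p under 0.05. The macrophage list stood at 139 and 161 CPM in control and at 211 and 228 CPM in Kansl1 cKO, and the Schwann cell and melanocyte list at 530.4 and 568 CPM and at 1021 and 1137 CPM. edgeR called 0 members of either list, 4 of each had an unadjusted p under 0.05, and DESeq2 called 0 and 3. Beside the higher Lama4 in both Kansl1 cKO libraries, the macrophage and the Schwann cell and melanocyte sums were higher in both and the fibroblast sum lower in both. The part of these cells was not tested.

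**Figure D4:**
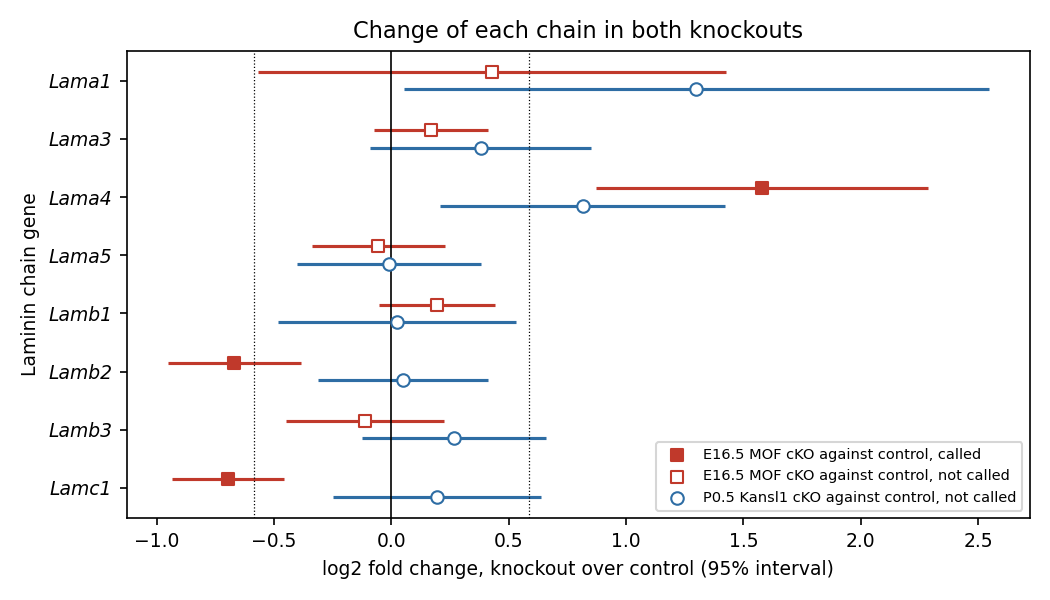
log2 fold change of each laminin chain in MOF cKO (squares) and Kansl1 cKO (circles) against the control of the same stage, with 95% intervals from edgeR, where filled symbols are called genes and dotted lines mark a fold of 1.5. Lamb2 and Lamc1 lie at -0.67 and -0.70 in MOF cKO and at 0.05 and 0.19 in Kansl1 cKO.

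Whether a chain changed differently in the 2 knockouts was tested as an interaction over all 8 libraries. edgeR passed 0 of the 8 chains at an adjusted p of 0.01, where 2.92% of 14565 genes passed, and 2 chains had an unadjusted p under 0.05. For Lamc1 the MOF change minus the Kansl1 change was -0.92 on the log2 scale (standard error 0.210, 95% interval -1.39 to -0.45, edgeR adjusted p = 0.0232). For Lamb2 it was -0.75 (standard error 0.190, 95% interval -1.18 to -0.32, edgeR adjusted p = 0.0327). DESeq2 passed 1 chain, Lamc1 (adjusted p = 0.0053). For Lama4 the difference was 0.73 with an interval of -0.30 to 1.76 (edgeR adjusted p = 0.311), and for the other 5 chains the edgeR adjusted p ran from 0.237 for Lamb3 to 0.826 for Lama5. A difference here would also hold any effect of stage, isolation and sequencer.

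Genes that work with laminins were described from 5 lists with 57 genes, written with earlier results of these data known. In MOF cKO 4 of the 55 tested were called lower (7.27%) and 8 higher (14.5%), where 9.59% and 10.0% of all genes tested were, and their median log2 change was 0.06. With library size alone the split was 10 lower and 3 higher. In Kansl1 cKO edgeR called 0 of 53, 11 had an unadjusted p under 0.05, and DESeq2 called 1, Nid1. Nid1 was at 85.4 and 38.5 CPM in P0.5 control and at 21.7 and 20.3 CPM in Kansl1 cKO (log2 fold change -1.55, edgeR adjusted p = 0.197, DESeq2 adjusted p = 0.0050), beside the lower fibroblast sum given above. Itga6, Itgb4, Itga3, Itgb1, Dag1 and Col4a1 had log2 fold changes in Kansl1 cKO from -0.14 for Itga6 to 0.24 for Itgb1, and edgeR or DESeq2 called 0 of these 6.

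Among 12 laminin receptors and receptor partners, 4 rose and 0 fell in MOF cKO, and the list's median log2 change was 0.47. Of all genes tested, 10.0% were called higher and 9.59% lower. With scaling by library size alone Rpsa was the only receptor called higher and Dag1 was called lower, and the calls of Itgb1, Cd151 and Sdc1 were lost. Itgb1, the integrin beta 1 subunit, was at 266 and 273 CPM in control and at 416 and 457 CPM in MOF cKO (log2 fold change 0.70, edgeR adjusted p = 0.0024, and 0.39 with an adjusted p of 0.0208 by library size alone). Cd151, a tetraspanin that partners laminin-binding integrins, was at 109 and 113 CPM in control and at 191 and 188 CPM in MOF cKO (log2 fold change 0.77, edgeR adjusted p = 0.0014). Sdc1, a heparan sulfate proteoglycan, and Rpsa, a ribosomal protein also described as a laminin receptor, rose with log2 fold changes of 0.81 and 0.90, and Rpsa has many processed pseudogenes that can share its reads.

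The receptor of the hemidesmosome pairs Itga6 with Itgb4. Itgb4 was at 596 and 577 CPM in control and at 773 and 834 CPM in MOF cKO (log2 fold change 0.45, edgeR adjusted p = 0.0109), and Itga6 at 296 and 238 CPM and at 253 and 193 CPM (log2 fold change -0.26, edgeR adjusted p = 0.243). Itga3, which pairs with Itgb1, had a log2 fold change of 0.49 (edgeR adjusted p = 0.0260), and Dag1, which encodes dystroglycan, one of -0.33 (edgeR adjusted p = 0.0564). None of these 4 passed both thresholds, although Dag1 did with library size alone (log2 fold change -0.63, edgeR adjusted p = 0.0053) and Itga3 did without MOF cKO replicate 1.

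Of 14 basement membrane partners, 2 fell and 1 rose in MOF cKO, and the list's median log2 change was -0.24, where 9.59% of all genes tested were called lower and 10.0% higher. Col4a6, a collagen IV chain, fell from 104 and 91.0 CPM to 26.5 and 31.3 CPM (log2 fold change -1.75, edgeR adjusted p = 0.00040). Smoc2, a secreted calcium-binding matrix protein, fell from 364 and 363 CPM to 235 and 192 CPM (log2 fold change -0.77, edgeR adjusted p = 0.0034). Col18a1, a basement membrane collagen, rose from 495 and 537 CPM to 766 and 857 CPM (log2 fold change 0.65, edgeR adjusted p = 0.0037). The Smoc2 and Col18a1 calls were lost without MOF cKO replicate 2, and that of Col18a1 also with library size alone. Nid1, which encodes nidogen and binds the gamma chain, was at 9.26 and 18.4 CPM in control and at 15.0 and 26.8 CPM in MOF cKO (log2 fold change 0.60, edgeR adjusted p = 0.238). Single libraries decide this value: it was 1.17 when control replicate 2 was left out, where Nid1 would be called higher (edgeR adjusted p = 0.0046), and 0.12 when MOF cKO replicate 2 was. Col4a1, a widely made collagen IV chain, had a log2 fold change of 0.15 (edgeR adjusted p = 0.584).

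Dystroglycan binds laminin through a sugar chain that a series of enzymes builds. Of 17 such genes, 1 fell and 0 rose in MOF cKO, where 9.59% of all genes tested were called lower and 10.0% higher. The list's median log2 change was -0.14. The called gene was Pomt1, an O-mannosyltransferase of the first step, at 24.3 and 28.1 CPM in control and at 11.1 and 13.0 CPM in MOF cKO (log2 fold change -1.12, edgeR adjusted p = 0.0030). Its call was lost in 1 fit over all 8 libraries. Pomk, listed as 4930444A02Rik, had a log2 fold change of -1.31 (edgeR adjusted p = 0.0120). It was not called by edgeR but was by DESeq2 (adjusted p = 0.0045).

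Of 8 proteases that cut or release laminin chains, 3 rose and 1 fell in MOF cKO, and the list's median log2 change was 0.58. Beside this, 10.0% of all genes tested were called higher and 9.59% lower. Bmp1 and Tll1, both tolloid proteases, went opposite ways. Bmp1 was at 124 and 145 CPM in control and at 197 and 219 CPM in MOF cKO (log2 fold change 0.63, edgeR adjusted p = 0.0063), a call lost with library size alone, with upper-quartile factors and without control replicate 1 or MOF cKO replicate 2, whereas Tll1 was at 13.3 and 16.3 CPM in control and at 1.91 and 3.51 CPM in MOF cKO (log2 fold change -2.44, edgeR adjusted p = 0.0018). Mmp9, a gelatinase also made by myeloid cells, was at 2.35 CPM in both control libraries and at 105 and 140 CPM in MOF cKO. Its log2 fold change was 5.70 (edgeR adjusted p = 4.2e-05), beside the rise of the macrophage markers given above. Which cells made Mmp9 was not tested. Plau, the urokinase plasminogen activator, had a log2 fold change of 1.22 (edgeR adjusted p = 0.0011). The 6 netrin genes, which share the N-terminal domain of laminins, were tested in 4 cases, and edgeR and DESeq2 called 0 of them (1 had an unadjusted p under 0.05).

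**Figure D5:**
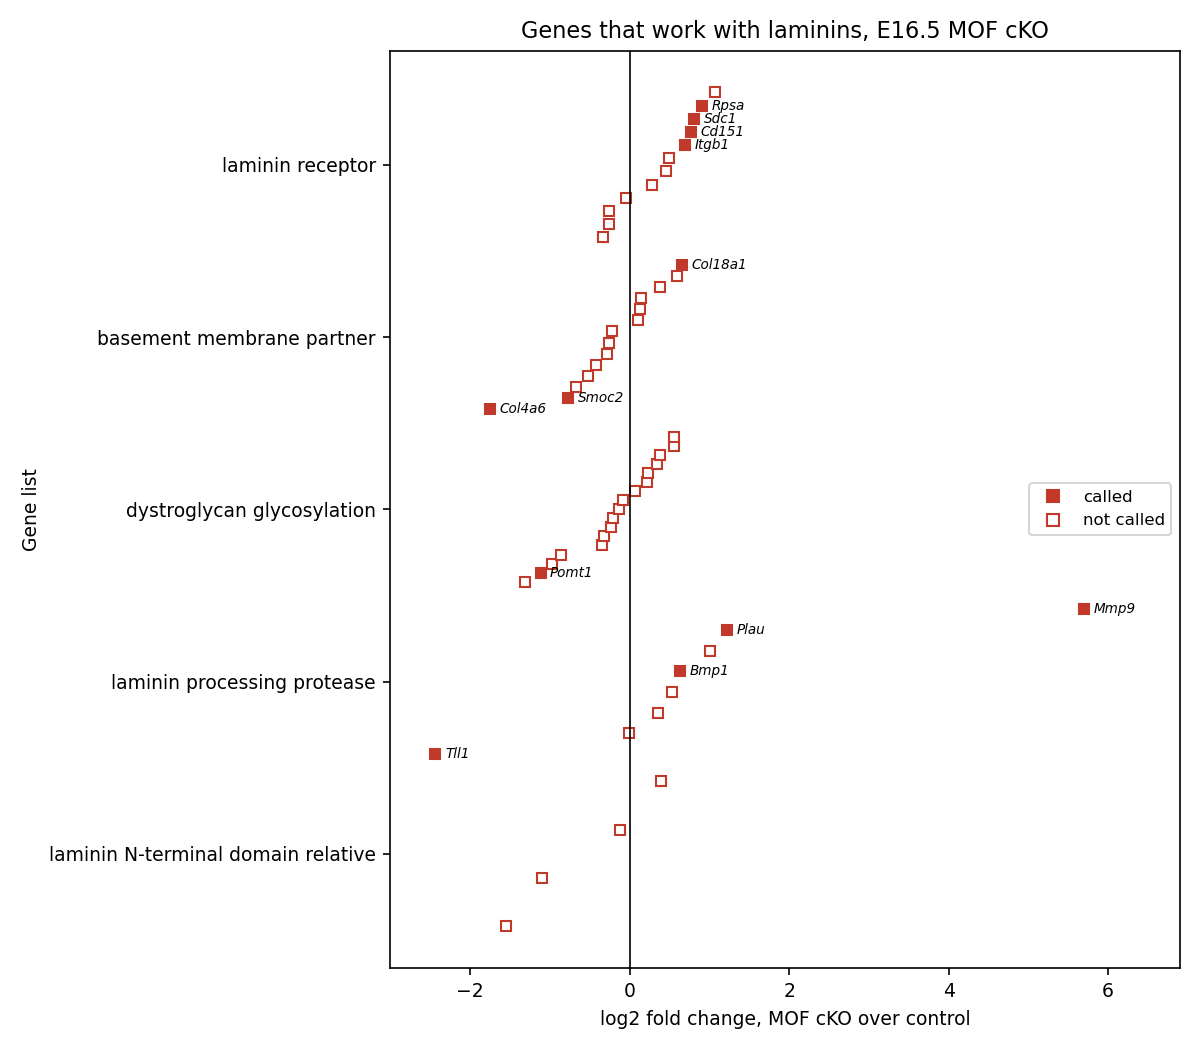
log2 fold change in E16.5 MOF cKO against control for the tested genes of the 5 lists, where each square is a gene and filled squares with names are called. The 4 called receptors lie to the right of 0, and Col4a6, Smoc2, Pomt1 and Tll1 lie to the left.

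For each chain called in MOF cKO, the genes with the most similar profile were found over 8 libraries, as Pearson's r of log2(CPM + 0.5) values centred on the mean of each experiment. The libraries share depth and genotype, so r is a description. For Lamc1 the 3 closest genes were Bcl2, a survival factor (r = 0.989), Cux1, a homeodomain transcription factor (r = 0.986), and Synpo2 (r = 0.985), with log2 fold changes in MOF cKO of -1.36, -1.67 and -2.58. For Lamb2 they were Ccdc157 (r = 0.991), 1810043G02Rik (r = 0.991) and Tmem8b (r = 0.991), with -2.29, -1.47 and -2.44. For Lama4 they were Unkl (r = 0.996), Amotl1, an angiomotin family member (r = 0.984), and Tmem97 (r = 0.983), with 0.72, 0.48 and 0.39.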

How the data were processed

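Polyadenylated RNA was sequenced from 8 libraries in 4 groups of 2. The authors aligned paired reads to mm10 and deposited the HTSeq count of reads per gene without normalization. The study's methods name HISAT2 and the submitters' processing notes name TopHat2. The gene annotation and the strand setting of the counting are not given in the sources used here. Rows without a gene name (reads outside genes, ambiguous or not unique) made up 21.1% to 26.0% of each library and were dropped.

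The tests used edgeR 4.0.16 under R 4.3.3 (filterByExpr, TMM, quasi-likelihood test, Benjamini-Hochberg adjustment over all genes tested), with each experiment fitted alone. DESeq2 1.42.0 was an alternative, beside other scalings, another filter, the replicate number as a block, 1 fit over 8 libraries and leaving out each library. The 8 chains were named in every comparison, and genes of the 5 related lists where called, beside Itga6, Itgb4, Itga3, Itgb1, Dag1, Nid1 and Col4a1. The members and lists were chosen with earlier results of these data known. The crossed replicate pairing was added after seeing the data. Exon lengths came from GENCODE M21, in which all 8 chains were found, and upstream sequences from RefSeq on GRCm38.p6. One marker gene of the Schwann cell and melanocyte list is not reported here and was left out of its sums and counts. The fit was checked on simulated counts in which some genes were changed by known folds. Of the genes changed 1.6-fold, 13.4% were called in the E16.5 comparison and 7.46% in the P0.5 comparison. For 2-fold changes these shares were 55.2% and 13.4%, and for 4-fold changes 89.4% and 86.4%. Most simulated 1.6-fold changes were thus missed. At each fold 66 or 67 genes were changed, where 1338 genes were called lower and 1395 higher in the E16.5 data. The adjusted p depends on how many genes change, so these shares do not give the recovery in the E16.5 data.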

Additional observations from a re-analysis of the deposited data

How the results depend on the processing

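With 2 libraries per group the intervals are wide, and Lama1 at P0.5 is limited by its counts. Lamc1 was called lower in MOF cKO under all 11 alternatives. Scaling by library size alone shifted the centre of all log2 changes in MOF cKO from -0.02 to -0.32. Under it Lama3 (-0.14) and Lamb1 (-0.11) turned negative but stayed above that centre, 0 chains were called higher, and 10 related genes were called lower and 3 higher, with Col4a1 at -0.16. The related genes called lower numbered 8 with every gene with 1 count and 8 at an adjusted p of 0.05. In the test between the knockouts DESeq2 passed 1 chain, an adjusted p of 0.05 passed 2, and Lamb1 was at -0.10 with library size alone. There Lama5 turned to 0.023 with RLE size factors, 0.047 with every gene with 1 count and 0.023 with DESeq2. The causes were not tested.

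In Kansl1 cKO 0 chains were called under any alternative run. Lama5 was at 0.0049 with every gene with 1 count and at 0.024 in 1 fit over 8 libraries, Lamb1 at -0.0065 with library size alone and at -0.021 with upper-quartile factors, and Lamb2 at -0.0026 with upper-quartile factors.

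Leaving out 1 library gave between 1 and 2 chains called lower in MOF cKO, and the call lost was Lamb2. With 1 library left in a group, it is assumed to vary like the other group. The log2 change in MOF cKO then ran from -0.54 to 1.01 for Lama1, from -0.17 to 0.067 for Lama5, from -0.31 to 0.061 for Lamb3 and from -0.12 to 0.38 for Col4a1. In Kansl1 cKO it ran from 0.59 to 1.92 for Lama1, from -0.14 to 0.080 for Lama5, from -0.29 to 0.26 for Lamb1, from -0.047 to 0.12 for Lamb2 and from -0.044 to 0.37 for Lamc1. The difference between the knockouts ran from -0.20 to 0.19 for Lama5 and from -0.11 to 0.42 for Lamb1.

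With the longest transcript length, the share among the alpha chains in E16.5 control, MOF cKO, P0.5 control and Kansl1 cKO was 1.31%, 3.83%, 2.51% and 3.77% for Lama4. Among the beta chains it was 17.4%, 22.8%, 13.3% and 11.7% for Lamb1 and 27.7%, 19.8%, 19.4% and 17.5% for Lamb2. Lamb3 moved to 54.9% in E16.5 control and 70.8% in Kansl1 cKO, and in Kansl1 cKO Lama3 moved to 49.5% and Lama5 to 46.1%.

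The replicate numbers are shared by the groups, and same-numbered libraries deviated together with a correlation of 0.206 at E16.5 and -0.202 at P0.5, so with 2 pairs they were taken as numbers alone. The replicate block gave 2 chains called lower and 1 higher in MOF cKO, 0 in Kansl1 cKO and 0 in the test between the knockouts, and 8 related genes called lower and 9 higher, with Nid1 added (log2 change 0.61, edgeR adjusted p = 0.0042). The study's methods speak of 2 pairs per experiment and do not say that a number marks a pair. Crossing the pairing in Kansl1 cKO gave 0 chains called.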
